A study of Mus musculus with 8 samples.

Results

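Keratins 7, 8, 18 and 19, the junction genes Epcam, Cdh1, Cldn4 and Cldn7, and the laminin chain Lama3 were followed through 2 KP lung tumors of the mouse. These 9 genes, taken by their symbols, are among 27923 genes listed in each of the 8 tables. KP tumors arose in chimeric mice that carry derivatives of KP embryonic stem cells of C57BL/6 with p53 fl/fl in albino C57BL/6 hosts, which keep cells of the host. Cre was given into the trachea of animals 12 weeks old by an adenovirus in which the surfactant protein C promoter drives it, so tumors start in cells that use this promoter, and tumors were taken 16 weeks later. Tumor 1 and Tumor 2 came from 1 mouse each. Cells of the Healthy/Tumor Border, labelled by photoactivation of a caged calcein and sorted, gave 1 Seq-Well library per tumor, and non-photoactivated cells of the Whole Tumor gave 3 arrays per tumor, which are technical replicates of 1 tumor. Every group shares the genotype, the virus and the times. In Seq-Well, the mRNA of single cells in microwells is caught on beads, and each molecule is counted once by its unique molecular identifier (UMI).

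Keratins are intermediate filament proteins that work in pairs of an acidic and a basic chain. Krt7 and Krt8 are basic keratins and Krt18 and Krt19 acidic ones, and all of them belong to simple epithelia such as the lining of the lung. Cdh1 encodes E-cadherin, which joins neighbouring epithelial cells at adherens junctions. Epcam is an adhesion molecule of the epithelial surface that binds Cldn7, and Cldn4 and Cldn7 are claudins of the tight junction. Lama3 encodes the alpha chain of laminin-332, by which epithelial cells sit on their basement membrane. Loss of Cdh1 with gain of Vim and Fn1 is the textbook sign of an epithelial to mesenchymal switch.

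After barcodes with fewer than 200 genes were left out, 3894 of 4343 barcodes remained, 328 to 620 per library, with medians of 675.5 to 2525.5 UMIs. The deposited totals were 405627 to 2029200 UMIs per library. Scrublet called 57 barcodes doublets, and these were kept. Across libraries, 10 barcode sequences were found in more than 1 library, on 56 kept barcodes. In all 8 libraries the names of the cells give the number of the tumor that the label does not, and groups follow the labels. The libraries labelled Tumor 1 hold 686 (Healthy/Tumor Border) and 1634 (Whole Tumor) deposited barcodes, and those labelled Tumor 2 hold 534 and 1489. The study's text gives these numbers under the same tumor names as the labels. Of the kept barcodes, 24 in Tumor 1 and 191 in Tumor 2 were B-like, and 46 and 161 were T, NK or innate lymphoid-like. Intervals cover counting error only, and p-values measure the spread between technical arrays, so a difference between tumors is a difference between 2 mice.

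In the mm10 build (GRCm38, GENCODE M21), Krt7 lies at chr15:101411043-101430313 on the plus strand, Krt8 at chr15:101996698-102004482 on the minus strand and Krt18 at chr15:102028180-102032027 on the plus strand. Krt8 and Krt18 are thus neighbours, 23697 bases apart. Krt19 lies at chr11:100140810-100148665 on the minus strand, Epcam at chr17:87635979-87651129 on the plus strand and Cdh1 at chr8:106603351-106670246 on the plus strand. Cldn4 lies at chr5:134945119-134946934 on the minus strand and Cldn7 at chr11:69964779-69967885 on the plus strand. An antisense gene, Gm671, overlaps Krt7 and a lincRNA, Gm36026, overlaps Krt8, both on the other strand. The use of strand in the counting is not given in the sources used here, so their reads could not be told apart.

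Promoter windows of RefSeq (GRCm38.p6, 250 bases before to 50 after the start) were found for 6 of the 9 genes, 7 windows in all. The windows of the keratins that carry most of the tumor difference below, and of Epcam, are shown because these genes were detected together in single barcodes. Capitals mark CACCTG or its complement CAGGTG, an E-box of the form that repressors of the Snail and Zeb families bind.
Krt7, chr15:101412153-101412452, plus strand: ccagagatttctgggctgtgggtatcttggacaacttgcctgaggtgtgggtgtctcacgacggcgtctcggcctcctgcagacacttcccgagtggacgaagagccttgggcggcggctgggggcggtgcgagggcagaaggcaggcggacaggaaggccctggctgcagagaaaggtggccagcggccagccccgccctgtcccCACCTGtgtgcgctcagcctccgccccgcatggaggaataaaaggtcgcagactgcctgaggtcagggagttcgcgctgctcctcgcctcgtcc
Krt8, chr15:102004293-102004592, minus strand: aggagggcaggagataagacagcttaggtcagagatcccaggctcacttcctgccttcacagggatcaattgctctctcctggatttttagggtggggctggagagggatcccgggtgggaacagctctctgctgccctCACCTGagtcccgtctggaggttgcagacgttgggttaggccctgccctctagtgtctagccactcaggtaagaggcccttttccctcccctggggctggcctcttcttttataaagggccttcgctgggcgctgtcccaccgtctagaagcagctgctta
Krt18, chr15:102027966-102028265, plus strand: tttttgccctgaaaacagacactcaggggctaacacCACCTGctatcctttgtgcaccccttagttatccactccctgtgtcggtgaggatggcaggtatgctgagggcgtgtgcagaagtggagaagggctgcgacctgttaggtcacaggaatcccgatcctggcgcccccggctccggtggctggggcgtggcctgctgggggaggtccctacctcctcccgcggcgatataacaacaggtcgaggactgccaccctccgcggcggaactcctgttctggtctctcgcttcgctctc
Epcam, chr17:87635729-87636028, plus strand: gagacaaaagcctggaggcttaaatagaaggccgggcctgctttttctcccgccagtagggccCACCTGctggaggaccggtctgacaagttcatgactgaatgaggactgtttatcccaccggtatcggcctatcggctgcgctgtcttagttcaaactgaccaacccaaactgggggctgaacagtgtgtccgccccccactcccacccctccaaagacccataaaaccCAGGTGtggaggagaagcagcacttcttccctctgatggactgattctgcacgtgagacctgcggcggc

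The Krt7, Krt8 and Krt18 windows hold 1 match each, whose first base lies at -44, -111 and -214 from the RefSeq start, and the Epcam window holds 2. Cldn4 has 2 matches, and Cldn7 has 0 in its first window and 2 in its other window. Of 32851 promoter windows of this length, 20.2% hold this E-box on either strand. Krt19, Cdh1 and Lama3 are named only. On both strands, TATAAA was also searched and matched in Krt8 alone among these windows (13.6% of all windows hold it), TGANTCA in Cldn4 alone (7.81%), and GGGCGG in Krt7, Epcam, Cldn4 and the second Cldn7 window (35.7%). A match is a description of letters and was not tested against binding.

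In Whole Tumor arrays, 8 of the 9 genes were higher in Tumor 1 than in Tumor 2, by between 4.31-fold for Epcam and 54.8-fold for Krt7, and Cdh1, at 1.59-fold, did not pass the test. UMIs of all barcodes of a library were summed and compared by the quasi-likelihood test of edgeR, with p adjusted (Benjamini-Hochberg) over 11232 genes, of which 10.9% were called higher in Tumor 1. Sums cannot tell fewer epithelial cells from less mRNA per cell, and values within classes of cells follow further on. Levels are UMIs per 10000 of the library's kept UMIs. Since genes differ in how well they are captured, levels of the same gene are compared here and not those of different genes.

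**Figure D1:**
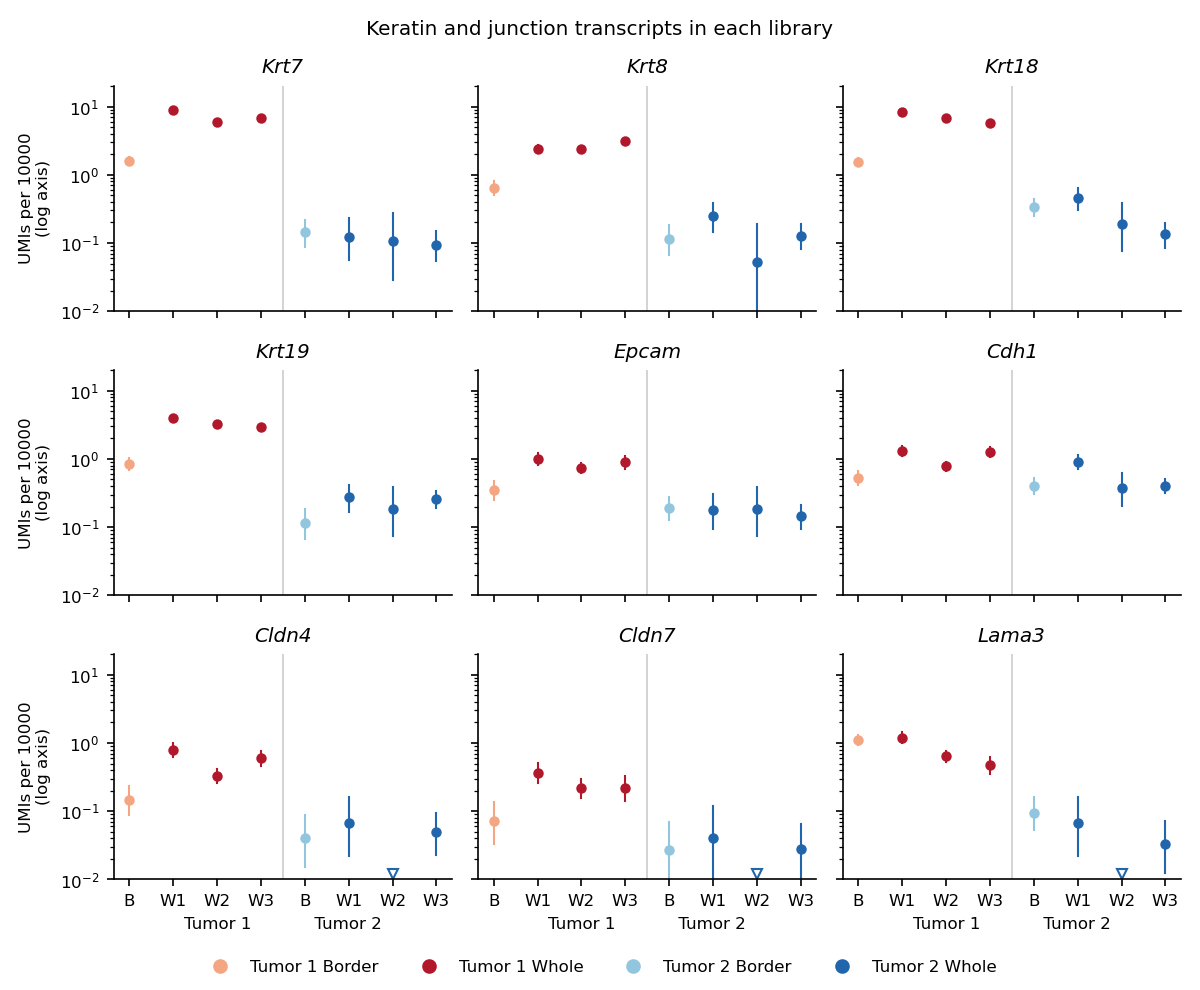
UMIs per 10000 (log axis) of each gene in each library, with 95% Poisson intervals, for the Healthy/Tumor Border (B) and the Whole Tumor arrays (W1 to W3) of each tumor; open triangles at the bottom mark libraries with 0 UMIs. Krt7 lies between 5.90 and 8.98 in the Whole Tumor arrays of Tumor 1 and between 0.0947 and 0.123 in those of Tumor 2, whereas Cdh1 has overlapping ranges, 0.778 to 1.32 and 0.374 to 0.913.

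Among basic keratins, Krt7 had 903, 1191 and 703 UMIs in the Whole Tumor arrays of Tumor 1 and 9, 4 and 17 in those of Tumor 2. The means were 7.20 ± 1.59 and 0.108 ± 0.014 per 10000 (SD, n = 3 each). No array of Tumor 2 reached the lowest of Tumor 1, and the fitted log2 difference was 5.78 ± 0.26 (SE, edgeR adjusted p = 1.1e-10). Krt8, the partner of Krt18 in simple epithelia, had 242, 488 and 324 UMIs against 18, 2 and 23. Its level was 2.64 ± 0.395 against 0.142 ± 0.0967 (SD, n = 3 each), with a log2 difference of 3.82 ± 0.26 (edgeR adjusted p = 1.2e-08). The Tumor 2 arrays of Krt8 differed among themselves, from 0.0534 to 0.245 per 10000, but stayed below the lowest Tumor 1 array at 2.41.

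Among acidic keratins, Krt18 had 834, 1365 and 607 UMIs in the arrays of Tumor 1 and 33, 7 and 24 in those of Tumor 2. Its log2 difference was 4.56 ± 0.30 (edgeR adjusted p = 7.4e-09), or 23.5-fold. Krt19, which pairs with either basic keratin and has the shortest chain of the family, had 400, 656 and 303 against 20, 7 and 46 UMIs. Its levels were 3.37 ± 0.551 and 0.239 ± 0.0455 per 10000 (SD, n = 3 each), and the log2 difference was 3.44 ± 0.21 (edgeR adjusted p = 3.0e-09), or 10.9-fold. For both genes the tumors did not overlap.

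The junction genes spread over a wider range of differences. Epcam had 101, 149 and 93 UMIs against 13, 7 and 26, levels of 0.877 ± 0.133 and 0.170 ± 0.022 per 10000 (SD, n = 3 each), and a log2 difference of 2.11 ± 0.24 (edgeR adjusted p = 4.2e-06). Cldn4 had 80, 67 and 63 UMIs against 5, 0 and 9, a log2 difference of 3.22 ± 0.45 (edgeR adjusted p = 3.3e-05). Cldn7 had 37, 44 and 23 UMIs against 3, 0 and 5, a log2 difference of 2.92 ± 0.51 (edgeR adjusted p = 0.00033). Both claudins were thus near the limit of detection in Tumor 2, where the array with 0 had the fewest UMIs, and its count of 0 allows up to 0.0985 per 10000 (exact Poisson 95% bound).

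Cdh1 was the exception. Its UMIs numbered 133, 157 and 132 in the arrays of Tumor 1, against 67, 14 and 73 for Tumor 2, which gave levels of 1.12 ± 0.298 and 0.565 ± 0.302 per 10000 (SD, n = 3 each). The first Tumor 2 array, at 0.913, lay above the lowest Tumor 1 array, at 0.778. The log2 difference of 0.67 ± 0.27 had an edgeR adjusted p of 0.081. It passed in 5 of 17 alternative settings, and without that first array it was 1.07 (edgeR adjusted p = 0.0065).

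Lama3 lies at chr18:12333819-12583013 on the plus strand, where 4 annotated genes overlap it, 3 of them on the other strand. It had 120, 129 and 49 UMIs in the arrays of Tumor 1 and 5, 0 and 6 in those of Tumor 2. The Tumor 1 arrays ranged from 0.468 to 1.19 per 10000 and those of Tumor 2 from 0 to 0.0681. The log2 difference was 3.97 ± 0.47 (edgeR adjusted p = 6.2e-06). Over all 9 genes, the median log2 difference was 3.44, beside 0.08 over all genes tested.

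These UMIs came mostly from epithelial-like barcodes. Barcodes were clustered without the 9 genes, and 2 clusters were named epithelial-like from other markers. A Clu+ Msln+ cluster of 142 barcodes was led by Nnat, Clu, S100a14 and Msln, with a median of 2888 UMIs, and 23 of the 26 markers of its list were found in at least 10% of its barcodes. An Sftpc+ cluster of 70 barcodes was led by Sftpc, Sftpa1, Sftpb and Sftpd, transcripts of surfactant proteins, with a median of 2665.5 UMIs. Since clusters are built from the same cells, levels by cluster are a description with no test. Of 10895 UMIs of the 9 genes, 92.4% lay in these 212 barcodes, 5.61% in the immune classes and 1.90% in a cluster led by satellite transcripts.

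The tumors held different epithelial-like barcodes. In Tumor 1, the Clu+ Msln+ cluster made up 10.5%, 9.76% and 6.47% of barcodes in the Whole Tumor arrays and 1.45% at the Healthy/Tumor Border (9 of 620, exact 95% interval 0.666 to 2.74%). In Tumor 2, it held 0, 0 and 1 barcodes of the Whole Tumor arrays and 1 of the Healthy/Tumor Border. The Sftpc+ cluster made up 2.90%, 2.96% and 2.54% of the Whole Tumor arrays of Tumor 1 and 2.44%, 1.63% and 1.14% of those of Tumor 2. At the Healthy/Tumor Border it held 1 barcode in Tumor 1 and 7 in Tumor 2. The exact intervals of the Sftpc+ shares of all 6 arrays overlap each other.

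**Figure D2:**
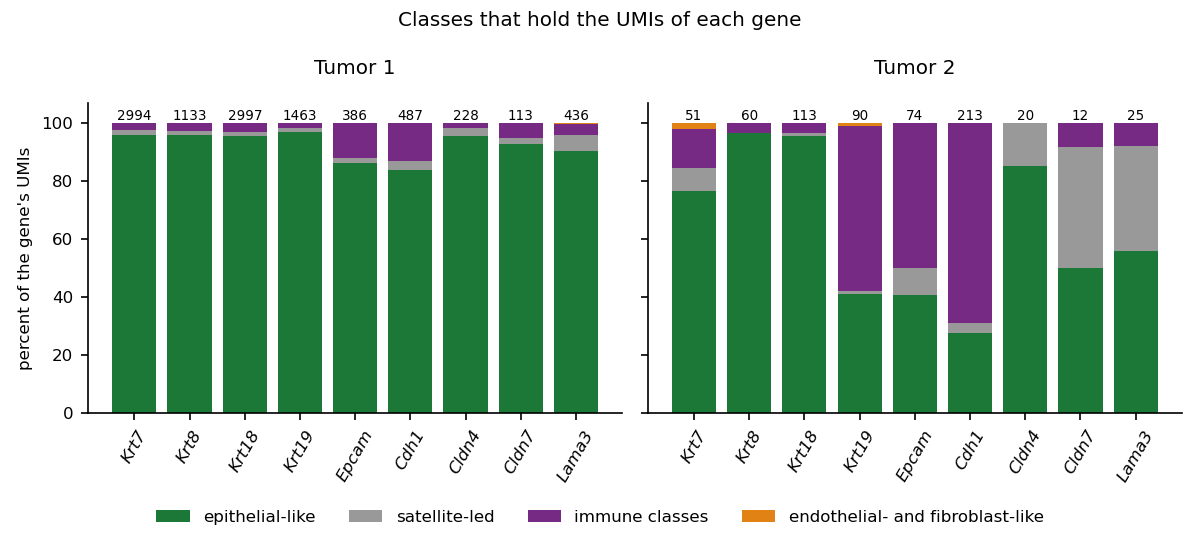
Percent of each gene's UMIs that lie in epithelial-like, satellite-led, immune and stromal classes, for each tumor, with the number of UMIs above each bar. In Tumor 1 at least 83.8% of each gene's UMIs are epithelial-like, whereas in Tumor 2 the immune classes hold 69.0% of Cdh1, 56.7% of Krt19 and 50% of Epcam UMIs.

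By gene, the epithelial-like share was 93.8 to 95.9% for Krt7, Krt8, Krt18, Krt19 and Cldn4, 88.8% for Cldn7, 88.5% for Lama3, 78.9% for Epcam and 66.7% for Cdh1. The tumors differed here. In Tumor 1, 94.8% of the UMIs of the 9 genes were epithelial-like. In Tumor 2, where epithelial-like barcodes were few, the share was 55.9%, and it was lowest for Cdh1 at 27.7%. Krt8 and Krt18 stayed at 96.7% and 95.6% in Tumor 2.

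In Clu+ Msln+ barcodes, the 9 genes together took 156.4 of every 10000 UMIs (95% Poisson interval 153.1 to 159.7), against 50.7 (48.1 to 53.5) in Sftpc+ barcodes. The 2 clusters differed in which genes made up that sum. Krt7 took 31.4% of the 9 genes' UMIs in the Clu+ Msln+ cluster and 13.1% in the Sftpc+ cluster, and Krt19 15.0% and 11.2%. Krt8 took 10.5% and 16.6%, and Cldn4 1.40% and 8.34%. Cdh1 took 2.92% in the first and 15.7% in the second, and Lama3 4.45% and 1.48%.

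As levels, Krt7 stood at 49.1 per 10000 in Clu+ Msln+ and 6.63 in Sftpc+ barcodes, Krt18 at 47.4 and 12.3, and Krt19 at 23.4 and 5.69. Krt8 stood at 16.5 and 8.42, and Lama3 at 6.96 and 0.749. Epcam lay closer, at 4.68 (4.13 to 5.29) and 3.82 (3.11 to 4.63), with overlapping intervals, as did Cldn7 at 1.54 (1.23 to 1.91) and 0.936 (0.606 to 1.38). Cdh1 and Cldn4 had the opposite order, at 4.56 and 7.97 for Cdh1 and at 2.19 and 4.23 for Cldn4. The larger level was thus in the Clu+ Msln+ cluster for the keratins and Lama3, and in the surfactant-expressing one for E-cadherin and claudin 4.

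**Figure D3:**
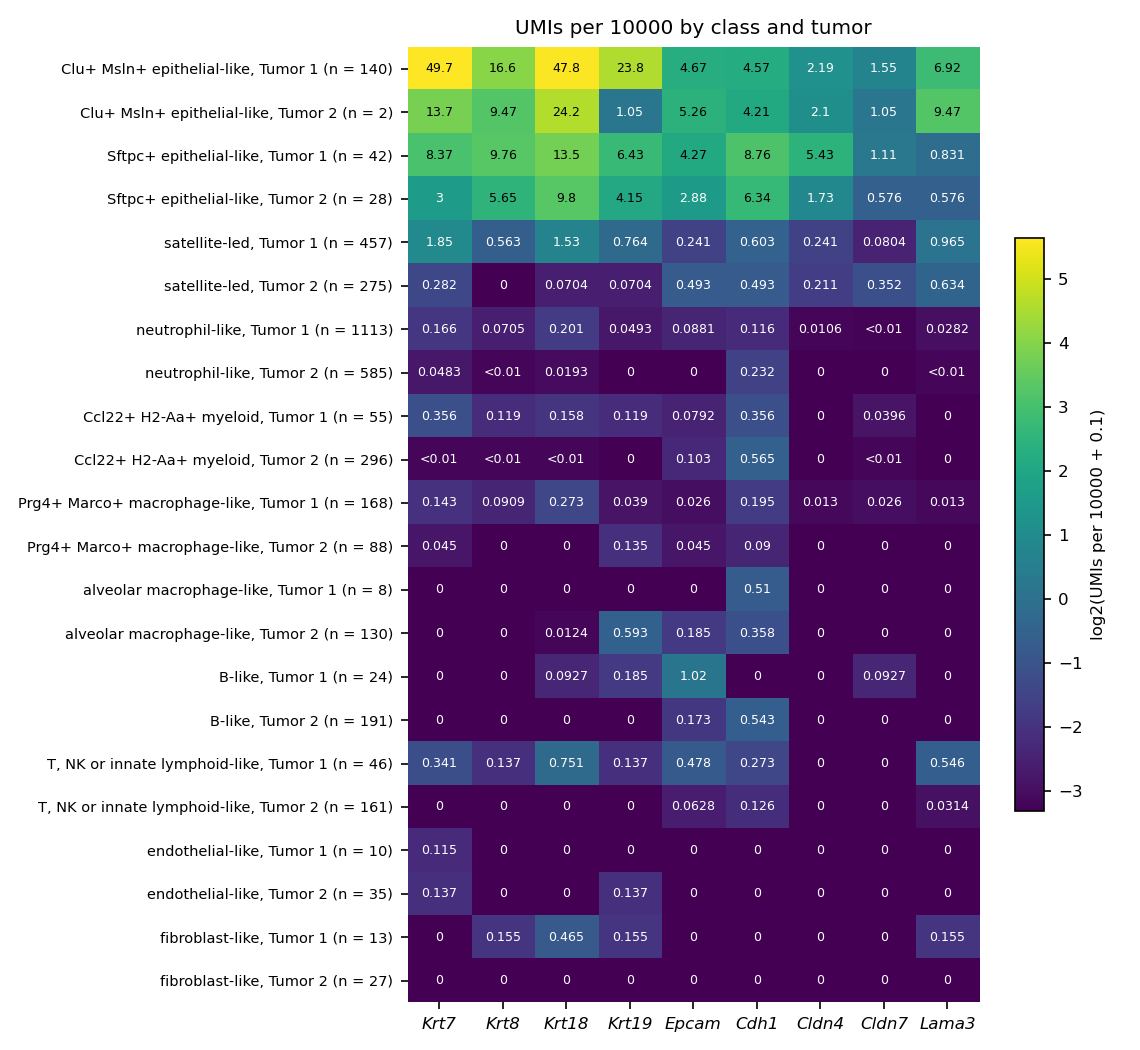
UMIs per 10000 of each gene in each class and tumor (numbers), coloured by log2 of that level plus 0.1, with the number of barcodes n. The 4 epithelial-like rows are brightest for every gene but Lama3, whose satellite-led rows (0.965 and 0.634) lie above the Sftpc+ row of Tumor 2 (0.576), with Krt7 at 49.7 in the Clu+ Msln+ and 8.37 in the Sftpc+ barcodes of Tumor 1, and isolated Krt19, Epcam and Cdh1 values stand out in immune rows.

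Among arrays of Tumor 1, Clu+ Msln+ levels of the 9 genes together were 143.6, 165.0 and 165.7 per 10000 in the Whole Tumor and 159.8 (147.8 to 172.5) in the 9 barcodes of the Healthy/Tumor Border. Few barcodes carry that last value, since 1 holds 214 of its 655 UMIs, and Lama3 gives 118, of which 85 lie in another barcode. Without Lama3, the other 8 genes stood at 137.2, 160.1 and 162.2 in the arrays and 131.0 (120.1 to 142.5) at the Healthy/Tumor Border. Krt7 stood at 47.3, 50.5 and 55.2 in the arrays and 41.7 (35.7 to 48.4) at the Healthy/Tumor Border. Krt18 stood at 42.9, 54.2 and 47.3 in the arrays and 35.9 (30.3 to 42.1) there. The Healthy/Tumor Border value was the lowest for both keratins, with intervals that reach the lowest array for Krt7 and fall short of its value for Krt18. Krt19, at 18.3 against 20.9 to 27.5, and Cldn4, at 0.976 (4 UMIs) against 1.41 to 3.57, were lowest there as well, as was Cldn7 at 1.22 (5 UMIs) against 1.36 to 1.73, and Krt8 lay within the arrays. Other members went the other way. Cdh1 stood at 10.7 (7.80 to 14.4) there against 3.13 to 4.90 in the arrays, Lama3 at 28.8 against 3.54 to 6.47, and Epcam at 6.83 (4.54 to 9.87) against 4.18 to 5.26. Single barcodes weigh on these values too, with 18 of the 44 Cdh1 and 17 of the 28 Epcam UMIs at the Healthy/Tumor Border in 1 barcode each. For Krt7 and Krt18, 1 barcode held 77 of 171 and 57 of 147 UMIs there. The intervals take UMIs of the same barcode as independent counts. In Sftpc+ barcodes, the 9 genes together ranged from 37.6 to 79.3 in the arrays of Tumor 1 and from 31.8 to 39.5 in those of Tumor 2.

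UMIs were spread unevenly over barcodes of a cluster. In the Clu+ Msln+ cluster, Krt7 had a median of 29.8 per 10000 with quartiles of 9.48 and 66.0 and a highest barcode of 282.3. The 14 barcodes with most UMIs held 42.1% of Krt7, 77.0% of Cldn4 and 61.1% of Lama3 UMIs. Cdh1, Cldn4, Cldn7 and Lama3 had a median of 0 in that cluster, so that a minority of its barcodes carried their counts. In Sftpc+ barcodes the median was 7.01 for Krt18, 4.33 for Cdh1 and 1.35 for Krt7.

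Single barcodes held several of the 9 genes at once in epithelial-like clusters and rarely elsewhere. A Clu+ Msln+ barcode had a median of 6 of the 9 genes, 98.6% had at least 1 and 67.6% at least 5. An Sftpc+ barcode had a median of 5, with 90% and 52.9%. In immune classes, with a median depth of 2193 UMIs, 9.28% of barcodes had at least 1 and 1.95% at least 2 of the genes. Thinned to 500 UMIs, the shares with at least 1 were 93.8%, 73.7% and 2.82%.

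**Figure D4:**
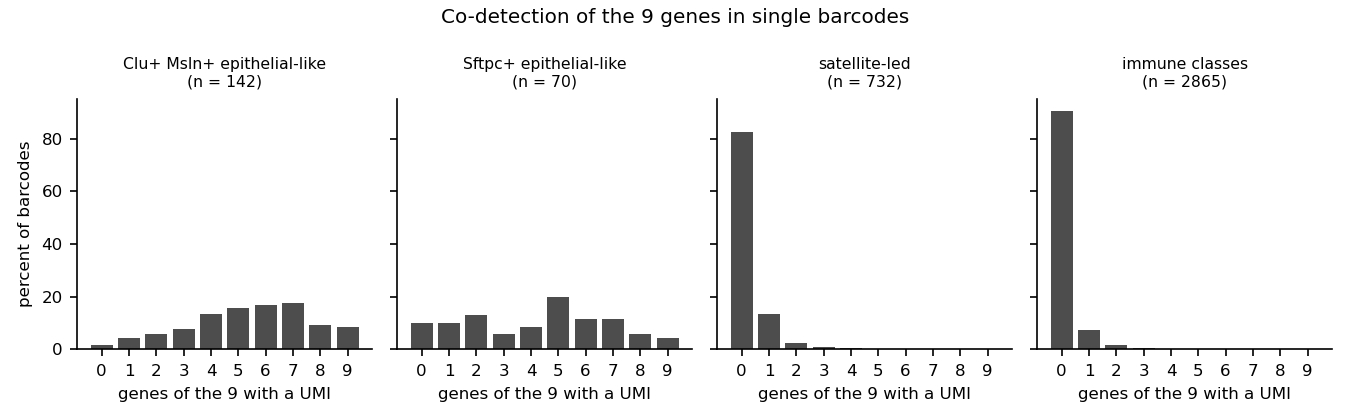
Percent of barcodes by how many of the 9 genes have a UMI, in both epithelial-like clusters, the satellite-led cluster and the immune classes, with the number of barcodes n. The bars of the epithelial-like clusters centre on medians of 6 and 5 genes, whereas most barcodes of the other panels have none.

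Krt8 and Krt18, partners in the filament, were found together. Of 111 Krt8+ barcodes of the Clu+ Msln+ cluster, 98.2% also had Krt18, against 61.3% of the 31 barcodes without Krt8. In the Sftpc+ cluster the shares were 90.9% of 44 and 34.6% of 26. Barcodes with Krt8 were deeper, with medians of 3402 against 1585 UMIs in the first cluster and 3925.5 against 1235.5 in the second, so depth moves with this co-detection, and its part was not tested. Of Cdh1+ barcodes of the Clu+ Msln+ cluster 71.2% had Epcam, and of Cdh1- barcodes 44.7%, with medians of 4150.5 and 2338 UMIs.

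A simple gate for epithelial cells, at least 1 UMI of Epcam, of a keratin of the 4 or of a surfactant gene, took in 594 of 3894 barcodes (15.3%). Only 207 of them were epithelial-like by cluster, whereas 243 were in immune classes, 138 satellite-led and 6 stromal. With at least 2 such UMIs the gate took 8.76% of barcodes, and with at least 2 such genes 7.29%. Members that the gate does not use differed both by cluster and by gate. Cdh1 was found in 53.6% of gated epithelial-like barcodes and in 13.2% of gated immune barcodes, against 2.97% of immune barcodes outside the gate. In satellite-led barcodes it was found in 6.52% inside and 2.02% outside. Cldn7 was found in 30.4% of gated epithelial-like barcodes, and in 2.06% of immune barcodes inside and 0.0763% outside the gate. Lama3 was found in 36.2% of gated epithelial-like barcodes, and in 1.23% and 0.343% of immune barcodes, and Cldn4 in 28.5%, 1.23% and 0 of 2622 (upper exact 95% bound 0.141%). The gate left out only 5 epithelial-like barcodes, too few to compare. Median depths were 2905 UMIs in gated epithelial-like barcodes, and 2964 inside and 2160 outside the gate in immune barcodes.

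Satellite-rich barcodes, in which at least 2% of UMIs came from satellite-related transcripts such as Gm10800 and Gm10801, numbered 656 and had a median of 342.5 UMIs. The 9 genes took 5.47 of every 10000 UMIs in them (4.63 to 6.42), 150 UMIs in all. That lay between the epithelial-like level of 122.1 and the immune level of 0.751 (0.693 to 0.813). A UMI of the genes was found in 101 of these barcodes (15.4%), and at least 2 genes in 15. Per tumor, the level was 7.39 (6.16 to 8.80) in Tumor 1 and 2.32 (1.48 to 3.44) in Tumor 2.

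The make-up of these UMIs differed between the tumors. In satellite-rich barcodes of Tumor 1, Krt7 made up 27.8% of the 9 genes' UMIs, Krt18 23.8% and Lama3 15.9%. In those of Tumor 2, which held 24 such UMIs, Krt7 made up 3 UMIs, Krt18 1, Krt8 and Krt19 0, Lama3 8 and Epcam 6. In Tumor 1 the libraries were at 5.62 (Healthy/Tumor Border), 9.91, 9.12 and 6.43 per 10000, with overlapping Poisson intervals. The part of free mRNA in these shallow barcodes was not tested.

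In immune classes, 611 UMIs of the 9 genes were found in 2865 barcodes, and their make-up was set beside that of epithelial-like barcodes of the same tumor. In Tumor 1, the immune UMIs were 26.1% Krt18, 20% Krt7 and 17.8% Cdh1, against 30.3%, 31.5% and 2.89% in Clu+ Msln+ barcodes and 23.1%, 14.3% and 15.0% in Sftpc+ barcodes. The shares of Krt8, Cldn4 and Lama3 lay nearer to those of the Clu+ Msln+ cluster. Krt8 made up 8.89% of the immune UMIs against 10.5% and 16.7%, Cldn4 1.11% against 1.39% and 9.30%, and Lama3 4.72% against 4.38% and 1.42%. Epcam, Krt19 and Cldn7, with 47, 24 and 6 of the 360 immune UMIs, lay nearer to the Sftpc+ cluster. Of these, Epcam had a larger share than in either cluster and Krt19 a smaller one. In Tumor 2, Cdh1 made up 58.6% of the 251 immune UMIs and Krt19 20.3%, whereas Krt7 had 7 and Krt18 4 UMIs. In Sftpc+ barcodes of Tumor 2, Cdh1 made up 18.3%, Krt19 12.0% and Krt18 28.2%. Cdh1 thus led the immune UMIs in the tumor with few epithelial-like barcodes.

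Krt19 in Tumor 2 lay mainly in alveolar macrophage-like barcodes, a cluster led by Ctsk, Chi3l3, Lpl and Ear2. Of its 138 barcodes, 21 held 48 Krt19 UMIs, with up to 9 in a barcode, and all 21 came from Tumor 2, which holds 130 of them. They came from all 4 libraries, 7 of 63 barcodes at the Healthy/Tumor Border and 5 of 16, 1 of 17 and 8 of 34 in the Whole Tumor arrays. None of the 21 was called a doublet, and 4 had a surfactant UMI, as did 15 of the 138 in the cluster. The level was 0.553 per 10000 (0.408 to 0.733), against 0.039 (0.00472 to 0.141) in B-like barcodes, which should lack keratins. The median depths of the clusters were 5459 and 1870 UMIs, and thinned to 500 UMIs the shares with Krt19 were 2.43% and 0.0931%. No Krt7 or Krt8 UMI and 1 Krt18 UMI were found in the alveolar macrophage-like cluster, while the 28 Sftpc+ barcodes of Tumor 2 had 36 Krt19 and 85 Krt18 UMIs.

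Cdh1 outside the epithelial-like clusters was found mostly in myeloid barcodes. The Ccl22+ H2-Aa+ myeloid cluster, led by Ccl22, Ccl17 and genes of antigen presentation, held 75 Cdh1 UMIs in 37 of 351 barcodes (10.5%, exact interval 7.53 to 14.2%), with up to 11 in 1 barcode. Its level was 0.528 per 10000 (0.415 to 0.662). The alveolar macrophage-like cluster held 32 Cdh1 UMIs in 21 of 138 barcodes, and neutrophil-like barcodes held 57 in 34 of 1698. In the B-like cluster 22 Cdh1 UMIs lay in only 3 of 215 barcodes.

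Of immune classes, the neutrophil-like one held the most Epcam UMIs, 25 in 14 of 1698 barcodes, all 14 of Tumor 1. Tumor 1 holds 1113 of these 1698 barcodes. The Ccl22+ H2-Aa+ myeloid cluster held 14 Epcam UMIs in 12 of 351 barcodes, 11 of them of Tumor 2, which holds 296 of the 351. Barcodes with Epcam were deeper in both clusters, with medians of 4649 against 1987 and 4527.5 against 2986 UMIs. B-like barcodes held 18 Epcam UMIs in 12 barcodes, 7 of 24 in Tumor 1 and 5 of 191 in Tumor 2. The B-like barcodes had median depths of 3776 UMIs in Tumor 1 and 1712 in Tumor 2, and thinned to 500 UMIs the shares were 3.85% and 0.815%, near 1 barcode each. Alveolar macrophage-like barcodes held 15 Epcam UMIs in 10 barcodes, all of Tumor 2, which holds 130 of the 138 in that cluster. Cldn4 had 0 UMIs in the alveolar macrophage-like, B-like, Ccl22+ H2-Aa+ myeloid and T, NK or innate lymphoid-like clusters.

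Within the epithelial-like class, summed per library over both clusters, 5 of 8 genes tested were higher in the Whole Tumor of Tumor 1 (10.2% of 1744 genes were called higher). Different clusters hold most of the class in the tumors, Clu+ Msln+ in Tumor 1 and Sftpc+ in Tumor 2. The arrays of Tumor 2 had only 8, 6 and 8 such barcodes. Krt7 had 854, 1168 and 679 UMIs in the arrays of Tumor 1 and 7, 3 and 12 in those of Tumor 2, a log2 difference of 3.95 ± 0.53 (edgeR adjusted p = 4.3e-05). Krt18 had 788, 1325 and 575 against 32, 7 and 23, a log2 difference of 2.43 ± 0.49 (edgeR adjusted p = 0.0021). Scaled by class totals, the arrays of Tumor 1 lay above those of Tumor 2 for both.

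Krt19 differed by 2.40 ± 0.52 (edgeR adjusted p = 0.0040) on the log2 scale and Lama3 by 3.03 ± 0.75 (edgeR adjusted p = 0.0097). Krt8 differed by 1.69 ± 0.50 (edgeR adjusted p = 0.027), and this call was lost without any array of Tumor 1 (adjusted p 0.057 to 0.18), without the first of Tumor 2 (0.056) and with scaling by class totals (0.060) or RLE factors (0.061). Epcam was at 1.16 ± 0.49 (edgeR adjusted p = 0.12), Cldn4 at 1.17 ± 0.57 (edgeR adjusted p = 0.17) and Cdh1 at -0.09 ± 0.47 (edgeR adjusted p = 0.93). Cldn7 had too few UMIs to be tested. Lama3 had 114, 114 and 43 UMIs in the class in Tumor 1 and 0, 0 and 4 in Tumor 2. Its fitted size rests on the third array of Tumor 2, as its difference ranged from 2.25 without the first Tumor 2 array (edgeR adjusted p = 0.061) to 8.56 without the third, where Tumor 2 is at 0 and the fitted value is no measure of size.

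In the Sftpc+ cluster alone, which both tumors hold, 0 of 7 genes tested passed (0.27% of 742 genes were called in either direction), and 2 had an unadjusted p under 0.05 by edgeR. No other tool was run on this cluster. Krt7 was at a log2 difference of 1.91 (edgeR adjusted p = 0.41) and Cldn4 at 1.68 (edgeR adjusted p = 0.56). Krt18 was at 0.49 with an interval of 2 SE from -0.80 to 1.77, and Cdh1 at 0.41 from -0.91 to 1.73. These intervals are wide, so that the cluster leaves differences of this size undecided at this depth.

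**Figure D5:**
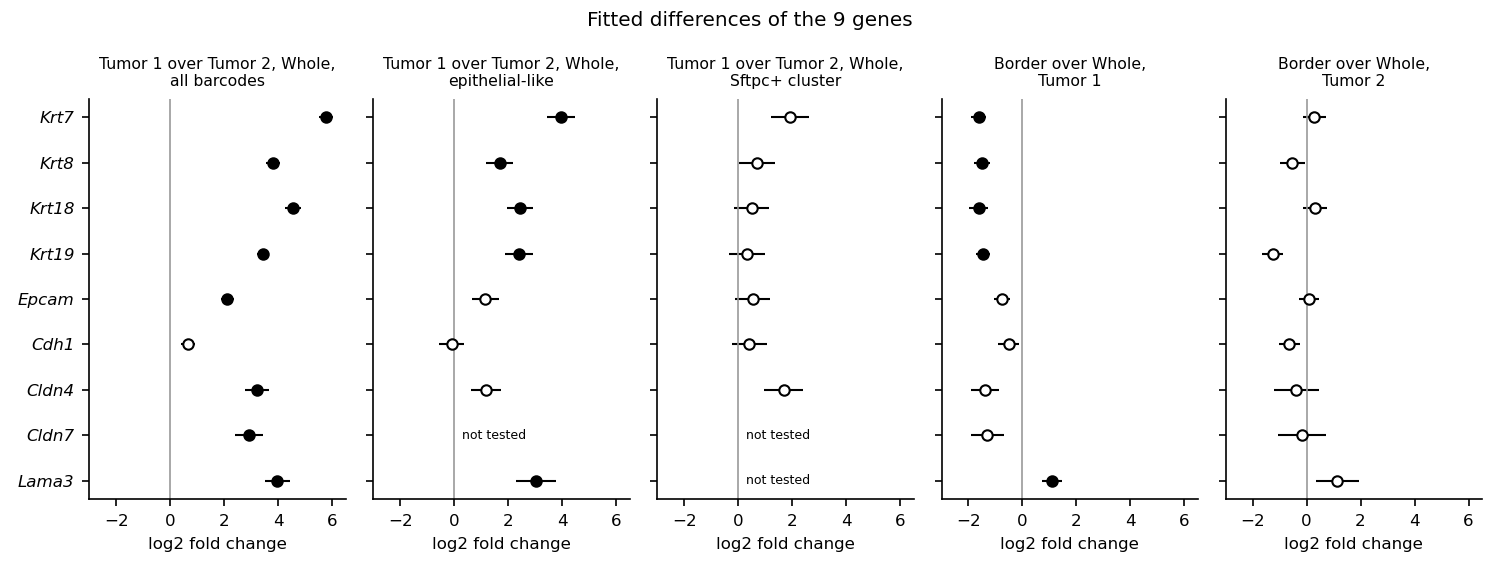
Log2 fold changes (points) with SE (bars) of each gene in 5 comparisons, fitted by edgeR on UMI sums; filled points pass an adjusted p of 0.05, and open points do not. The keratins lie far right of 0 between tumors, from 3.44 to 5.78 over all barcodes, and left of 0 at the Healthy/Tumor Border of Tumor 1, from -1.62 to -1.46.

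At the Healthy/Tumor Border of Tumor 1, all 4 keratins were lower than in its Whole Tumor (8.35% of genes were called lower). Krt7 had 197 UMIs, or 1.60 per 10000 (1.39 to 1.84), below the arrays at 5.90 to 8.98. Krt8 had 79 UMIs, or 0.642 per 10000, below 2.41 to 3.10. Krt18 had 191, or 1.55, below 5.80 to 8.29, and Krt19 had 104, or 0.846, below 2.89 to 3.98. The Healthy/Tumor Border thus lay under every Whole Tumor array for each keratin.

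The fitted log2 differences were -1.62 ± 0.27 for Krt7 (edgeR adjusted p = 0.00034), -1.49 ± 0.31 for Krt8 (0.0020), -1.62 ± 0.36 for Krt18 (0.0033) and -1.46 ± 0.26 for Krt19 (0.00070), or 3.08-, 2.82-, 3.08- and 2.74-fold lower. With DESeq2, Krt18 did not pass (-1.58, adjusted p = 0.063). The fit scales libraries by TMM factors, 0.792 for this library and 1.11 to 1.18 for the arrays of Tumor 1, and levels per 10000 by totals alone. Scaling by totals moved the median of all genes by -0.53, and the keratins moved with it. With a single library at the Healthy/Tumor Border, the fit assumes that it varies like the arrays.

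The junction genes were below the Whole Tumor mean without passing the test. Epcam was at -0.77 ± 0.30 (edgeR adjusted p = 0.084), Cldn4 at -1.39 ± 0.52 (0.074), Cldn7 at -1.31 ± 0.60 (0.15) and Cdh1 at -0.52 ± 0.38 (0.39). With scaling by totals, Epcam, Cldn4 and Cldn7 passed as well. Over all 9 genes the median was -1.39, beside -0.08 over all genes tested. The share of Clu+ Msln+ barcodes moved in the same direction, 9 of 620 against 47 of 449, 56 of 574 and 28 of 433, and its part was not tested.

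Lama3 was called higher at the Healthy/Tumor Border of Tumor 1, at 1.10 ± 0.37 on the log2 scale (edgeR adjusted p = 0.045), where 9.98% of genes were called higher. It had 138 UMIs there, or 1.12 per 10000, within the range of the arrays at 0.468 to 1.19. A single Clu+ Msln+ barcode held 85 of those UMIs (61.6%). Without this barcode the difference was -0.27 ± 0.44 (edgeR adjusted p = 0.73), and with scaling by totals it was 0.57 (edgeR adjusted p = 0.29). The call was lost in 8 of 13 alternative settings, so it rested on 1 barcode and on the settings.

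At the Healthy/Tumor Border of Tumor 2, 0 of the 9 genes passed by edgeR and 0 by DESeq2 (3.19% of genes were called by edgeR), and 1 had an unadjusted p under 0.05. That was Krt19, with 17 UMIs or 0.116 per 10000 (0.0677 to 0.186), below the arrays at 0.187 to 0.273, and a log2 difference of -1.26 ± 0.39 (edgeR adjusted p = 0.092). The other genes ranged from -0.64 for Cdh1 to 1.14 for Lama3. Krt7 had 21 UMIs, Krt8 17, Krt18 49, Epcam 28, Cdh1 59, Cldn4 6, Cldn7 4 and Lama3 14. Epithelial-like barcodes numbered 8 of 506 there and 22 over the 3 arrays.

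The Healthy/Tumor Border difference was larger in Tumor 1 than in Tumor 2 for 2 of the 9 genes, Krt7 and Krt18 (6.93% of genes were called lower in Tumor 1 by this test). For Krt7 the differences of -1.62 and 0.29 gave an interaction of -1.91 ± 0.51 (edgeR adjusted p = 0.017). For Krt18 those of -1.62 and 0.33 gave -1.95 ± 0.56 (edgeR adjusted p = 0.025). Neither passed without the third Whole Tumor array of Tumor 2, with adjusted p of 0.059 and 0.076, or with barcodes of at least 500 genes, with 0.094 for both, and Krt18 did not pass with DESeq2 (adjusted p = 0.20). The other 7 interactions ranged from -1.15 for Cldn7 to 0.12 for Cdh1.

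Other genes of the same structures were taken from lists drawn up with results of these data known. Over all genes, 10.9% were called higher and 14.3% lower in the Whole Tumor of Tumor 1. Between the Whole Tumors, of 12 adherens junction and desmosome genes tested 8 were higher in Tumor 1 and 0 lower, and of 9 genes of laminin-332 and the hemidesmosome 6 were higher and 1 lower. Tight junction genes had 4 higher and 0 lower of 16, other keratins 3 and 1 of 6, other laminin chains 3 and 1 of 7, and epithelial regulators and surface genes 5 and 1 of 14. Mesenchymal genes went the other way, with 1 higher and 6 lower of 7, and their median was -1.31 beside 0.08 over all genes. The medians of these 7 lists kept their sign under RLE, totals and DESeq2 scaling, but the counts moved. DESeq2 called 4 adherens junction and desmosome genes, 2 other keratins and 3 regulators higher. Scaling by totals called 8 tight junction genes and 8 regulators higher and 4 mesenchymal genes lower.

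Beyond the rule for named genes, further called genes of these lists are named here after their values were seen. Higher in the Whole Tumor of Tumor 1 were the catenins Ctnna1 (log2 difference 0.60), Ctnnb1 (0.86) and Ctnnd1 (0.73), which link E-cadherin to actin, Jup (0.83), and the desmosome genes Dsp (1.77), Dsg2 (1.33), Pkp2 (1.57) and Ppl (1.41). Lamb3 (1.38), the beta chain of laminin-332, was higher too, as were the receptor subunits Itga6 (1.44), Itga3 (1.90) and Itgb4 (edgeR adjusted p = 0.00019). Among claudins, Cldn2 (3.52), Cldn3 (1.02) and Cldn18 (2.01) were higher, and the keratin Krt23 (3.63) was higher and Krt80 lower (-1.92). Lower in Tumor 1 were Vim (-1.31), Zeb1 (-0.95), Zeb2 (-0.65), Snai1 (-3.11), S100a4 (-2.22) and Tgfbi (-2.22), while Fn1 was higher (1.62). These sums are over all barcodes, and immune cells express mesenchymal genes as well. Zeb1 had 521 UMIs in immune classes, 5 in Clu+ Msln+ and 0 in Sftpc+ barcodes, S100a4 had 409, 22 and 0, and Vim 6697, 751 and 19. All of these had edgeR adjusted p under 0.05.

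By fitted value, the rule for named genes took Rab25, Krt14 and Krt20, whose arrays of Tumor 2 are at or near 0, so that this order is no rank of size. Rab25, a small GTPase of epithelial membrane traffic, had 21, 39 and 18 UMIs in Tumor 1 and 0 in every array of Tumor 2, at least 18.5-fold higher against a floor of 3 UMIs over the group (edgeR adjusted p = 8.4e-05). Krt14, a keratin of basal cells, had 4, 4 and 14 UMIs against 0, at least 5.23-fold higher on the same floor (edgeR adjusted p = 0.047, DESeq2 adjusted p = 0.051). Krt20 had 8, 27 and 8 against 0, 1 and 0 (edgeR adjusted p = 0.017). Most of these UMIs of Tumor 1 lay in Clu+ Msln+ barcodes, 69 of Rab25, 18 of Krt14 and 38 of Krt20.

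At the Healthy/Tumor Border of Tumor 1, of 9 laminin-332 and hemidesmosome genes 0 were higher and 4 lower, of 7 mesenchymal genes 1 and 4, of 12 adherens junction and desmosome genes 0 and 2, and of 7 other laminin chains 0 and 2. Tight junction genes had 1 higher and 1 lower of 16, regulators 1 and 2 of 14, and other keratins 0 and 0 of 6. Over all genes, 9.98% were called higher and 8.35% lower in this comparison, and several of the lists lie near these shares. Scaling by totals called 4 tight junction genes and 4 regulators lower, and DESeq2 called 1 lower each of the adherens junction and desmosome genes, the other laminin chains and the regulators. Fn1, fibronectin, had 30 UMIs against 2308, 5057 and 3412, a log2 difference of -6.24 (edgeR adjusted p = 3.3e-07). Over all libraries, 14728 Fn1 UMIs lay in immune classes. Of those in the Whole Tumor of Tumor 1, 9002 were in the Prg4+ Marco+ macrophage-like cluster, which had 55, 66 and 47 barcodes in the arrays and 0 of 620 at this Healthy/Tumor Border. S100a4 had 1 against 27, 40 and 7 (-3.81, edgeR adjusted p = 0.014, DESeq2 adjusted p = 0.056). Cldn1, a further claudin, had 256 UMIs against 29, 90 and 15, higher by 3.27 on the log2 scale (edgeR adjusted p = 2.2e-05). These were not epithelial-like UMIs, since 247 of the 256 lay in neutrophil-like barcodes, and over all libraries each epithelial-like cluster held 1. Neutrophil-like barcodes made up 73.7% of this library and 35.4%, 58.9% and 36.7% of the arrays. The part of these shares in the Fn1 and Cldn1 differences was not tested. Among genes named after their values were seen, Lamc1 (-3.10), Cd151 (-2.06) and Itga6 (-1.52) had edgeR adjusted p of 8.7e-06, 0.0017 and 0.0069 and were lower there. Itga6 had 541 UMIs in immune classes over all libraries, against 269 in Clu+ Msln+ and 34 in Sftpc+ barcodes.

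At the Healthy/Tumor Border of Tumor 2, 3 of 71 list genes tested were higher and 1 lower, beside 3.19% of all genes called in either direction. Tjp3, a scaffold of the tight junction, had 26 UMIs against 2, 0 and 6 (log2 difference 2.51, edgeR adjusted p = 0.020). DESeq2 gave it no adjusted p and called 0 tight junction genes. Of the 26 UMIs, 12 lay in B-like and 3 in Sftpc+ barcodes, and over all libraries immune classes held 119 Tjp3 UMIs against 24 in Clu+ Msln+ and 11 in Sftpc+ barcodes. Itga6, which over all libraries had 541 UMIs in immune classes, had 215 against 50, 9 and 71 (1.53, edgeR adjusted p = 0.011). Fn1 had 3773 against 296, 323 and 1464 (1.71, edgeR adjusted p = 0.0042). Of the 3773 Fn1 UMIs, 2795 lay in alveolar macrophage-like barcodes, which made up 12.5% of this library and 4.88%, 4.62% and 5.52% of the arrays. The gene called lower was Cd24a of the list of epithelial regulators and surface genes (edgeR adjusted p = 0.025), which was higher at the other tumor's Healthy/Tumor Border (1.91). Fn1 thus fell at the first tumor's Healthy/Tumor Border and rose at the other's, with an interaction of -7.94 (edgeR adjusted p = 3.0e-07), and the interaction of Cldn1 was 5.43 (edgeR adjusted p = 1.0e-04) and that of Rab25 -5.77 (edgeR adjusted p = 0.0498, and 0.053 with RLE factors). Rab25 had 6 and 3 UMIs at the Healthy/Tumor Borders and 0 in the Whole Tumor of Tumor 2, so that the size of its fitted value is no measure.

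Within the epithelial-like class, the 3 called list genes with the highest fitted values were at 0 in all Tumor 2 arrays, so that their differences are lower bounds and cannot be ranked. Vim, the intermediate filament of mesenchymal cells, had 252, 338 and 127 UMIs in Tumor 1, at least 21.9-fold higher against 3 UMIs over the group (edgeR adjusted p = 2.8e-05). Itgb4 of the hemidesmosome had 41, 35 and 21, at least 2.97-fold higher (edgeR adjusted p = 0.012), and Lamb1 had 37, 35 and 12, at least 2.57-fold higher (edgeR adjusted p = 0.022). Of 8 laminin-332 and hemidesmosome genes tested 4 were higher, of 4 other laminin chains 1, of 8 regulators 1 and of 2 mesenchymal genes 2, beside 10.2% over all genes tested, while 0 of 8 adherens junction and desmosome, 0 of 5 tight junction and 0 of 1 other keratin genes were called. RLE factors and DESeq2 left 2 of the 8 laminin-332 and hemidesmosome genes higher, and DESeq2 1 of the 2 mesenchymal genes. In the other direction, 1 of the 5 tight junction genes was called lower with RLE factors, totals and DESeq2, and 1 other laminin chain with totals and DESeq2. Over all libraries, Vim had 751 UMIs (13.5 per 10000) in Clu+ Msln+ and 19 (0.711 per 10000) in Sftpc+ barcodes. The class holds 131 Clu+ Msln+ and 41 Sftpc+ barcodes in the Whole Tumor of Tumor 1 and 1 and 21 in that of Tumor 2, so the mix of clusters moves with these differences. Within the Sftpc+ cluster alone, 0 of the 7 member genes tested passed by edgeR (2 at an unadjusted p under 0.05), and Vim had 14 UMIs in the Whole Tumor of Tumor 1 and 0 in that of Tumor 2. Summed over all barcodes, Vim was lower in Tumor 1 (-1.31). The 10 fibroblast markers together stood at 10.8 per 10000 in Clu+ Msln+ and 6.55 in Sftpc+ barcodes, almost all of it Bgn (553 and 103 UMIs) and Sparc (43 and 68), while Col1a1 had 1 and 2 and Lum 0 UMIs. The 4 mesothelial markers stood at 4.92 and 0.112 per 10000. In Clu+ Msln+ barcodes that sum was Msln alone, with 274 UMIs, and Upk3b, Wt1 and Lrrn4 were at 0.

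Over 18 groups of barcodes made by class and tumor, the 10 genes whose log2 level followed the sum of the 9 most closely included Lad1 (Pearson r = 0.939), Gsta4 (0.934), Golm1 (0.930), Krt23 (0.930), S100a14 (0.919), Eya2 (0.914), Llgl2 (0.909), Cldn18 (0.907) and Mal2 (0.900). These groups share libraries and clusters, so the values describe likeness only. S100a14 is among the genes that lead the Clu+ Msln+ cluster.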

How the data were processed

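Seq-Well libraries of 2 KP tumors were analysed. The authors sequenced them, aligned reads to mm10 (the submitters' processing notes name STAR 2.5.2b and bcl2fastq 2.17.1.14), followed the Drop-seq protocol and deposited raw UMI counts of each gene per barcode, unnormalized, 1 table per array. The authors' cell assignments were not used.

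Barcodes with at least 200 genes were kept, the minimum that the methods of the study state. This left out 449 of the 4343 deposited barcodes. The study counts all deposited barcodes as cells, so its set was larger, and all deposited barcodes were run as an alternative. Clusters were made with Seurat 5.3.0 in R 4.3.3 (1947 variable genes, without the 9 genes and without genes the study lists as changed at a border, 30 components, resolution 0.5), and were named from marker lists that exclude the 9 genes, by a rule set after the clusters were seen: most markers among the 10 leading genes, at least 3 detected. Doublets were called with Scrublet in scanpy 1.11.5 and kept. UMIs were summed per library and fitted with edgeR 4.0.16 (TMM, filterByExpr, quasi-likelihood F test, 1 mean per tumor and region, Benjamini-Hochberg adjustment, threshold 0.05), and DESeq2 1.42.0 was an alternative. Fits were tested on simulated data, where library sums gave somewhat more false calls than the nominal share. Not every changed gene was recovered, fewest for the interaction, the difference of Border over Whole between tumors. Likeness used log2(CPM + 10). Shares have exact Clopper-Pearson and levels exact Poisson 95% intervals. Named are the 9 genes, the 3 largest called list genes per comparison and the 10 genes most like the 9. The members and lists were chosen with earlier results of these data known. Depth ranged from 374369 to 2019162 kept UMIs per library. Alternatives varied the scaling, the filter on low counts, barcode filters, clusters, the replicate block and each array left out. Some items are not reported here.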

Additional observations from a re-analysis of the deposited data

Results flagged for a closer look

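The change from Whole Tumor to Healthy/Tumor Border differed between the tumors for Krt7 and Krt18 by a test of the difference itself. For Krt7 it was -1.91 on the log2 scale (edgeR adjusted p = 0.017) and for Krt18 -1.95 (edgeR adjusted p = 0.025), Tumor 1 minus Tumor 2. Neither call held without the third Whole Tumor array of Tumor 2 (edgeR adjusted p = 0.059 and 0.076) or with barcodes of at least 500 genes (0.094 for both), and that of Krt18 did not hold with DESeq2 (-1.81, adjusted p = 0.20). At the Healthy/Tumor Border of Tumor 2, Krt7 had 21 and Krt18 49 UMIs.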

How the results depend on the processing

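Between the Whole Tumors, 8 members stayed called in every setting, with 9 under a replicate block over the 6 arrays, where Cdh1 was at 0.76 (edgeR adjusted p = 0.015). Array numbers of different mice are only numbers and do not pair samples. In the epithelial-like class the replicate block left 4 members and 149 genes called, and Krt8 at 1.45 (edgeR adjusted p = 0.10).

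Leaving out 1 array gave 8 to 9 members and 1914 to 2494 genes called between the Whole Tumors, 4 to 5 and 1654 to 2047 for the Border comparison in Tumor 1, 0 to 0 and 207 (without the third Tumor 2 array) to 365 in Tumor 2, 0 to 2 and 1374 to 1769 for the difference between tumors, and 3 to 5 and 90 to 303 in the epithelial-like class. In the class, 117, 164 and 90 genes were called without the first, the second and the third Tumor 1 array, and 133 (with 3 members) and 106 without the first and the third Tumor 2 array. Cdh1 ranged from -0.55 to 0.40, the latter without the first Tumor 2 array. DESeq2 called 1854 genes between the Whole Tumors (612 higher), 3 members at the Healthy/Tumor Border of Tumor 1 (all keratins but Krt18) and 1 for the difference. With at least 500 genes per barcode, the Border comparison in Tumor 2 called 106 genes and the difference 0 members. Without the barcode richest in Lama3, chosen after seeing the data, Lama3 was at -0.27.

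Scaling by library totals, added after seeing the data, moved the median of all genes by 0.31, -0.53, 0.17, -0.70 and -0.43 in the 5 comparisons. It changed the higher and lower calls from 1228 and 1609 to 2684 and 1094, from 1121 and 938 to 537 and 2543, from 115 and 243 to 240 and 192, from 892 and 778 to 455 and 2390 (2845 in all) and, in the class, from 178 and 82 to 104 and 164. RLE factors gave 114 and 134 in the class and DESeq2 95 and 109. For the Border comparison in Tumor 2 DESeq2 gave 56 and 263, and for the difference 783 and 372. Without a filter on low counts, 445 genes were called in the class, with Cdh1 at 0.28. The Sftpc+ cluster alone had 0 members and 2 genes called, with Cdh1 at 0.41.

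The epithelial-like level was 133.2 in Tumor 1 and 38.2 in Tumor 2, and 127.0 with at least 500 genes. In satellite-rich barcodes it was 7.39, 2.32 and 2.42, and 4.43 at a threshold of 5%. In immune classes it was 0.863, 0.634 and 0.688. The epithelial-like share was 94.8%, 55.9% and 94.3%. The gate took 8.76% with 2 UMIs and 7.29% with 2 genes. Of the 117 values of members not called at the Healthy/Tumor Border of Tumor 2 over alternatives, 7 changed sign and 0 were called, and for the difference 13 of 112 changed sign and 1 was called. In Tumor 2 the claudins had 0 to 9 UMIs per library, so that counting error is large for them.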
